A study of Apis mellifera carnica with 38 samples.

Results

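The fat bodies of 5 queens injected with whole semen (SE) were compared with those of 5 queens injected with Hayes solution (HS), the saline in which semen is diluted. These were 10 of the 38 libraries of the study, and every gene row that passed a filter on low counts was compared, 8201 of 12332. All were virgin *Apis mellifera carnica* queens, raised as sisters from a mother inseminated by a single drone, and each library came from 1 queen. They were injected as adults a week after they emerged and were frozen within the next week. Every queen had a wing clipped and received a single injection into the body cavity, so that the HS queens share the wound, the volume and the handling of the SE queens. The fat bodies of 5 queens injected with seminal fluid (SF), the liquid left after sperm were spun out of semen diluted with Hayes solution, were used to show which changes were also called without sperm, were compared with the SE queens directly, and entered the joint fit that estimates the spread. The dilution of the injected semen was not given in the sources used here, so that sperm and the amount of seminal fluid cannot be told apart between SE and SF queens. The sisters are closely related, and semen was injected into the body cavity rather than placed in the genital tract, which limits the groups as a model of mating. The semen was pooled from many drones of another subspecies, *Apis mellifera ligustica*.

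The insect fat body is a loose tissue beneath the abdominal cuticle that does the work of a liver and of adipose tissue. It stores fat and glycogen, makes yolk protein and other proteins of the haemolymph, breaks down amino acids, and releases antimicrobial peptides. When a queen mates, she receives sperm together with seminal fluid, which holds proteins, peptides and sugars from the male glands. In *Drosophila*, seminal proteins act on the female beyond the genital tract, and the fat body is one of the tissues that respond. Comparing SE with HS queens asks what the ejaculate changes in this tissue, and the SF queens show which of these genes were called without sperm.

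The dissected tissue was the emptied abdominal wall with the fat body attached. *Vg*, the yolk protein precursor, was present at 12340.4 to 37001 per-million-scaled counts of reads on genes (CPM) in HS queens and 15929.7 to 34923 CPM in SE queens. Reads on genes numbered 4832119 to 12560312 per library in SE and 7869541 to 13212533 in HS queens. The share of reads that did not align to the bee genome was 63.3% ± 7.07 in SE and 58.9% ± 5.74 in HS queens (SD, n = 5 each), and its part in the results was tested only as a covariate. The study aligned a large part of the reads of many libraries to Deformed Wing Virus, and said that this may have confounded its expression results. It reported no significant difference in viral reads among the injected groups, and little of the virus in most virgin queens. The summed CPM of other cell types overlapped between groups. For the oenocyte genes it was 12609.7 to 43117 in HS and 18125 to 24658 in SE queens, for the 7 troponins of muscle (2 of them, *TpnT* and *TpnCIIb*, without a read in any library) 1843 to 2547 and 1897 to 3262, for 26 cuticle genes 1394 to 1727 and 1076 to 2516, and for 19 neuron genes 587 to 647 and 527 to 675. Each sum follows its most abundant genes. In HS queens *Cyp4g11* was at 12505 to 43019 CPM, beside 97.6 to 152 CPM for *FAR1*, the other oenocyte gene. Among the neuron genes *Syx1A* was at 268 to 334 CPM and *Para* at 128 to 154 CPM, beside 4.64 to 7.55 CPM for *brp*. Overlap of the sums therefore does not show that cell content was alike. The germ cell genes summed to 38.2 to 50.4 CPM in HS and 29.7 to 52.9 CPM in SE queens. Of these genes, *nanos* and *aub* had reads in every HS and SE queen, and *vas* had no read in any injected fat body. As the muscle gene *TpnT* had none either, a lack of reads does not show that a cell type was absent. No list of haemocyte or sperm genes was summed, so the share of these cells was not tested. *PPO*, the prophenoloxidase gene, was at 28.5 to 106 CPM in HS and 25.2 to 113 CPM in SE queens. In bulk tissue, fewer cells of a type and less RNA per cell cannot be told apart.

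In SE queens 303 genes were differentially expressed (DEGs) against HS queens, which is 3.69% of the genes tested, at an adjusted p under 0.05 in edgeR's quasi-likelihood test. Of these DEGs, 122 were higher (1.49% of genes tested) and 181 were lower (2.21%). The study, with limma, listed 194 genes up and 148 down for this comparison. Limma-voom here gave 148 higher and 194 lower, and the reason for the opposite split was not tested. The log2 fold change of the DEGs ran from -2.59 to 2.14, with a median size of 0.64, and 64 DEGs changed by more than 1 log2 unit. Genes with an unadjusted p under 0.05 numbered 1688. The median log2 fold change of all genes tested was 0.02. With library sizes alone in place of the TMM scaling, the calls were split into 63 higher and 202 lower.

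**Figure D1:**
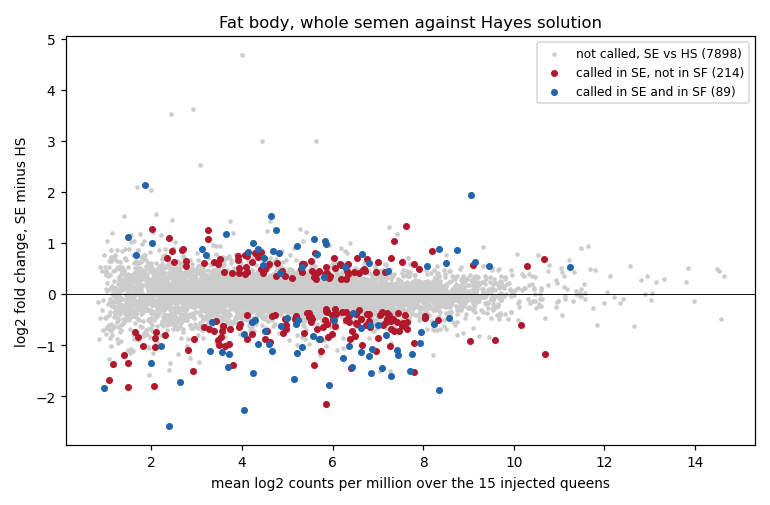
Log2 fold change of SE over HS queens (vertical axis) against mean log2 CPM over the 15 injected queens (horizontal axis), with each point a gene. Red points are the 214 DEGs that were not called in SF queens, blue points the 89 DEGs called in both, and grey points the other 7898 genes, among them some with larger fitted changes than any DEG.

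The genes with the smallest p among those that rose included a lipase, a phosphate cotransporter and carriers of small hydrophobic molecules. The gene with the smallest p among those that rose, *LOC726880*, described as a pancreatic lipase-related protein, stood at 62.5, 74.8, 71.6, 70.1 and 69.5 CPM in the HS queens and at 116, 122, 109, 129 and 119 CPM in the SE queens. The groups did not overlap, as in 5.01% of all genes tested. Its log2 fold change was 0.77 ± 0.09 (SE of the estimate, adjusted p = 0.000346), and that of SF queens was 0.69 ± 0.09. *Obp14*, which encodes a small soluble carrier of hydrophobic ligands, rose from a mean of 189 ± 13.9 CPM to 727 ± 249 CPM (SD, n = 5 each), a log2 fold change of 1.94 ± 0.23 (adjusted p = 0.000424). Also among the 10 genes with the smallest p that rose were *LOC413263*, an inorganic phosphate cotransporter (log2 fold change 1.03), *LOC409278*, an apolipoprotein D-like lipid carrier (0.62), *LOC410869*, the orthologue of the fly gene *larsen* (0.56), the microRNA gene *Mir87-1* (0.93), *LOC724126*, whose fly orthologue is an arylalkylamine N-acyltransferase (1.25), and *LOC410515*, with no described function (2.14). Each of these was also called in SF queens. The remaining pair of this group, *LOC725093* and *LOC408643*, was not.

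Of the genes that fell, the smallest p belonged to *LOC726547*. Its fly orthologue *abrupt* encodes a transcription factor of the BTB zinc finger type. The level was 112, 124, 140.2, 113 and 96.6 CPM in HS queens and 59.4, 57.4, 55.1, 66.6 and 51.9 CPM in SE queens. The SE queens were all below the HS queens, and the log2 fold change was -1.01 ± 0.10 (adjusted p = 0.000105), with -0.73 in SF queens. *Emc*, a helix-loop-helix protein that in *Drosophila* holds back other factors of its family, fell by 0.80 on the log2 scale. *Crzr*, the receptor of the stress peptide corazonin, fell by 1.67, while it fell by 2.24 in SF queens. *LOC413021*, a papilin-like protein of the extracellular matrix, fell by 1.21 in SE and by 0.74 in SF queens. *LOC726371*, a cysteine dioxygenase that catabolises cysteine, fell by 1.77, *LOC410801*, a cathepsin J-like protease, by 2.27, *LOC100577667* by 2.59 and *LOC726842* by 0.89. All 8 of these genes were called in SF queens as well.

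Of the 303 DEGs, 214 were not called in SF queens, 86 of them higher and 128 lower in SE queens, and 89 were called in both. The same 5 HS queens serve both comparisons, so the SE and SF fold changes of a gene are not independent and are given side by side only. In SF queens 136 genes were called against HS (1.66% of genes tested), 47 of which were not called in SE queens. A gene called in SE and not in SF queens is not thereby shown to differ between them, and the difference was tested directly. No gene passed an adjusted p under 0.05 for SE against SF queens (0 of 8201, 0% of genes tested), the smallest adjusted p in edgeR's test was 0.899, and 438 genes (5.34%) had an unadjusted p under 0.05. DESeq2, limma-voom and limma-trend also called 0 genes. The precision of this comparison was limited. The 95% interval of the SE minus SF difference extended a median of 0.29 log2 units to each side for the 214 genes, whose median log2 fold change against HS had a size of 0.59. Sequencing lanes were also uneven, with SF queens on lanes 3, 7 and 8 and SE queens on lanes 4, 5, 6, 7 and 8. HS queens shared only lanes 3 and 8 with SF queens. Lane and injected fluid can therefore not be fully told apart, here or in the split into 214 and 89 genes. With lane as a covariate, SF against HS gave 5 genes and SE against SF 0.

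Among the genes that were called in SE and not in SF queens, the smallest p of those that rose belonged to *LOC725093*, orthologue of the fly gene *KrT95D*. It stood at 15.7, 16.1, 14.7, 16.8 and 14.2 CPM in HS queens, at 21.0, 22.4, 18.0, 24.4 and 17.6 CPM in SF queens, and at 25.9, 31.5, 23.7, 23.9 and 32.1 CPM in SE queens. Both injected groups were above all HS queens, and 1 SF queen, SP76, lay within the range of the SE queens. The log2 fold change was 0.82 ± 0.11 in SE queens (adjusted p = 0.00132) and 0.41 ± 0.12 in SF queens (adjusted p = 0.0854). The SE minus SF difference was 0.41 log2 units with an unadjusted 95% interval of 0.17 to 0.65 (adjusted p = 0.899 over all genes). *LOC408643*, orthologue of the fly *Drat*, named for an alcohol dehydrogenase domain, was at 92.0, 100.3, 102, 156 and 97.4 CPM in HS queens and at 342, 412, 173, 179 and 268 CPM in SE queens. The SE queens were all higher, although S29 and S38 exceeded the highest HS queen, H74, by little. Its log2 fold change was 1.33 ± 0.24 (adjusted p = 0.00822) in SE and 0.94 ± 0.23 (adjusted p = 0.0549) in SF queens. The study itself reported *LOC408643* as higher than in HS queens in both SF and SE queens, and checked this by quantitative PCR. Its absence from the SF calls here is therefore a matter of the threshold and is not read as a lack of change.

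Among those that fell, *LOC410253*, orthologue of *vrille*, a transcription factor of the circadian clock in *Drosophila*, was at 197, 223, 225, 204 and 195 CPM in HS queens. In SE queens it was at 122, 123, 128, 136 and 121 CPM. The 5 SE queens were tightly grouped below the HS queens, while the SF queens ranged from 123 to 180.0 CPM, with SP79 within the SE range and the others above it. It changed by -0.72 ± 0.10 in SE queens (adjusted p = 0.00132) and -0.40 ± 0.10 in SF queens (adjusted p = 0.0510). Queens were frozen in the afternoon, the exact time by queen was not given in the sources used here, and its part in this result was not tested. *LOC107964661*, a long noncoding RNA on linkage group 6 (15260544 to 15272011 of Amel_HAv3.1), was at 3.00, 3.40, 2.08, 3.37 and 2.59 CPM in HS queens, at 1.43, 1.21, 1.38, 2.61 and 2.19 CPM in SF queens, and at 0.901, 0.851, 1.16, 0.790 and 0.796 CPM in SE queens. It was 1 of 7 genes among the 214 in which all SE queens lay below or above all SF queens, a pattern found in 0.463% of all genes tested. As the 214 genes were chosen with the SE levels, nothing is read from that count.

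**Figure D2:**
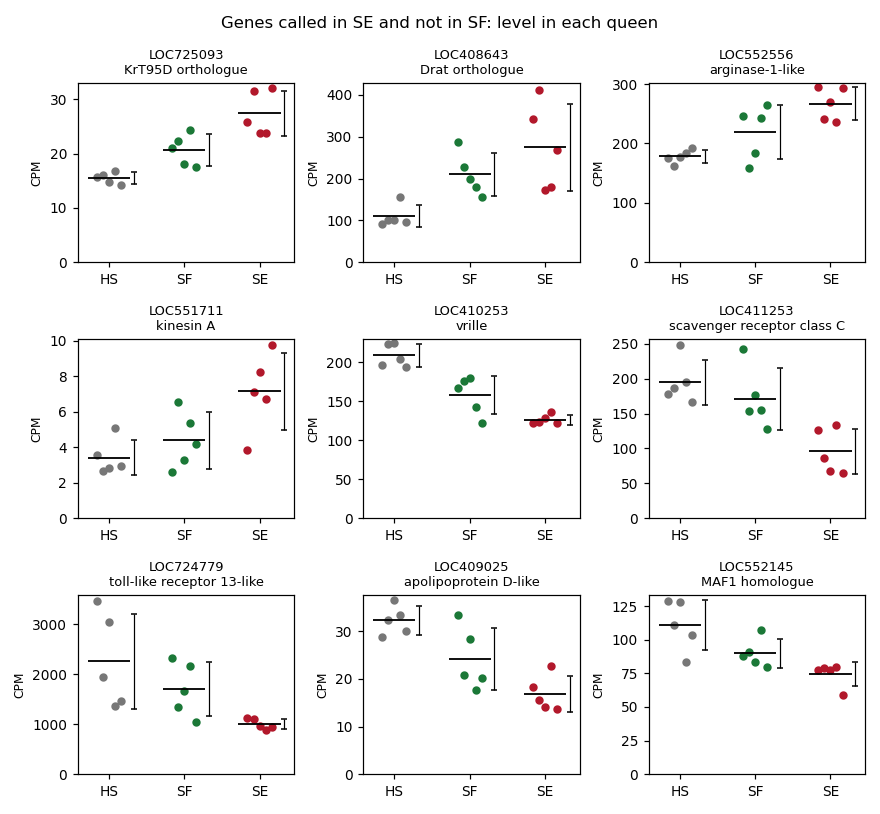
Levels of 9 genes called in SE and not in SF queens, as TMM-normalised CPM (vertical axis, from 0) in each queen of the HS, SF and SE groups. Points are queens, lines are group means and bars are SD (n = 5 each). In *LOC725093* the HS queens lie between 14.2 and 16.8 CPM and the SE queens between 23.7 and 32.1 CPM, with the SF queens between 17.6 and 24.4 CPM.

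A scavenger receptor and a toll-like receptor were lower in SE queens and were not called in SF queens. *LOC411253*, a class C scavenger receptor, a family that in *Drosophila* binds bacteria on haemocytes, was at 178, 186, 248, 195 and 166 CPM in HS queens and at 127, 86.5, 68.005, 134 and 64.4 CPM in SE queens. The groups did not overlap, and in SF queens the gene ranged from 127 to 243 CPM, so that SP79 lay within the SE range, SP16 and SP76 between the SE and HS ranges, and SP1 and SP35 within the HS range. The change on the log2 scale was -1.02 ± 0.21 in SE queens (adjusted p = 0.0154) against -0.19 ± 0.21 in SF queens (adjusted p = 0.722). The difference between them was -0.84 log2 units, with an unadjusted 95% interval of -1.28 to -0.39, and its p of 0.00100 was the smallest of all genes in the direct comparison (adjusted p = 0.899). *LOC724779*, a toll-like receptor 13-like protein, was at 3467, 1938, 3059, 1365 and 1476 CPM in HS queens and at 1117, 1103, 971, 878 and 953 CPM in SE queens. The HS queens spread widely, and every SE queen was below the lowest of them. It fell by 1.17 ± 0.26 on the log2 scale in SE queens (adjusted p = 0.0220), beside -0.41 ± 0.26 in SF queens, and the difference was -0.77 log2 units (95% interval -1.31 to -0.22, unadjusted).

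The class B scavenger receptors *LOC412630*, *LOC410982* and *LOC412788*, which in insects take up lipids and dead cells, fell by 1.18, 1.42 and 1.04 on the log2 scale in SE queens, and were called in SF queens as well. *LOC552479*, the orthologue of *draper*, the engulfment receptor of the fly, rose by 0.49, whereas *LOC408480*, the orthologue of its adapter *ced-6*, fell by 0.60. *LOC412897*, *defense repressor 1*, which in *Drosophila* restrains the Imd pathway, fell by 0.36. These last 3 genes were not called in SF queens. Of 9 such genes in all, 1 rose and 8 fell. This group, like the groups of metabolism, matrix, receptors, nucleolus and replication below, was gathered from gene descriptions with the calls known, so that its count is a description of the DEGs only. The count of genes not called in SF queens in any group stands beside 214 of all 303 DEGs. Gathered but not called in SE queens were 2 of 14 amino acid genes, 3 of 12 nucleolus genes and 1 of 14 replication genes. The same held for 3 of 6 serine protease and serpin genes, *LOC100578030* (antitrypsin-like), *LOC724208* and *LOC724703*, all of which were called in SF queens. Their log2 fold changes were 0.94, 0.66 and 0.34 in SE queens and 1.18, 1.04 and 0.64 in SF queens. The study reported antitrypsin as higher in SE as well as SF queens and checked it by quantitative PCR. Its lack of a call in SE queens here (adjusted p = 0.0514 in edgeR's test) is not read as a lack of change.

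A list of immune genes that carry a RefSeq symbol was also examined. Of 13 immune recognition and signalling genes tested, 0 were called, beside 3.69% of all genes, and 3 had an unadjusted p under 0.05, beside 20.6% of all genes. The median log2 fold change was 0.06 (all genes 0.02). Lists this short can hold no called gene at the share of all genes, and nothing is read from the 0. *Pgrp-s2*, a peptidoglycan recognition protein, had a log2 fold change of -0.84 ± 0.24 (adjusted p = 0.0575). Neither of the tested antimicrobial peptide genes was called. *Def1*, a defensin gene, was at 11335, 7643, 10285, 15129.7 and 7552 CPM in HS queens and at 21887, 11458, 11671, 13501 and 15169 CPM in SE queens, with overlap (log2 fold change 0.50 ± 0.24, adjusted p = 0.250). The other defensin gene of the list, *Def2*, had no read in any injected fat body. For *Apid1*, which encodes apidaecin, the log2 fold change was -0.60 ± 0.40 (adjusted p = 0.427). Of the serine proteases, which act in clotting and melanisation cascades, *LOC726126* (serine protease 8) fell by 1.40 ± 0.29 in SE queens (adjusted p = 0.0151), beside -0.68 ± 0.28 in SF queens (adjusted p = 0.232). *LOC724250* (serine protease 10) rose by 1.53 and by 2.05 in SF queens, and *LOC726320*, a serpin whose fly orthologue *Spn27A* restrains melanisation, rose by 0.43 and was not called in SF queens.

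Genes of amino acid metabolism changed in both directions. Of the 12 DEGs gathered here 4 rose and 8 fell, and 9 were not called in SF queens. *LOC552556*, an arginase that splits arginine into ornithine and urea, was at 176, 162, 177, 183 and 193 CPM in HS queens and at 295, 242, 269, 236 and 293 CPM in SE queens. All SE queens were higher, and the log2 fold change was 0.58 ± 0.13 (adjusted p = 0.0205), beside 0.30 ± 0.13 in SF queens (adjusted p = 0.251). *LOC408368*, an adenosylhomocysteinase of the methyl cycle, rose by 0.63, *LOC552014*, of methionine salvage, by 0.45, and *LOC552557*, a subunit of the branched-chain keto acid dehydrogenase, by 0.42. In the other direction, *LOC725456*, a sodium-dependent nutrient amino acid transporter, was at 59.3, 56.3, 62.4, 39.1 and 47.5 CPM in HS queens and at 33.3, 29.4, 34.5, 36.9 and 22.0 CPM in SE queens. The groups did not overlap (log2 fold change -0.77 ± 0.15, adjusted p = 0.0126, beside -0.41 in SF queens). A second transporter, *LOC409932*, fell by 0.56, *LOC410096*, a gamma-glutamyltranspeptidase that breaks down glutathione, by 0.59, *LOC410432*, a threonine dehydrogenase, by 0.73, and *LOC410638*, described as a dopa decarboxylase, by 0.61, none of them called in SF queens. *LOC411771*, orthologue of the fly glutamate decarboxylase *Gad1*, fell by 0.97 and *LOC724718*, a xanthine dehydrogenase of purine breakdown, by 0.75, both also called in SF queens.

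Lipid genes changed in both directions. Of 15 DEGs, 6 rose and 9 fell, and 8 were not called in SF queens. *LOC409025*, a second apolipoprotein D-like carrier, was at 28.8, 32.4, 36.5, 33.5 and 30.1 CPM in HS queens, at 33.3, 20.9, 28.4, 17.7 and 20.1 CPM in SF queens, and at 18.2, 15.5, 14.2, 22.7 and 13.6 CPM in SE queens. The SE queens lay below all HS queens, whereas the SF queens spanned from within the SE range to within the HS range. It changed by -0.94 ± 0.17 on the log2 scale (adjusted p = 0.00878) beside -0.42 ± 0.17 in SF queens (adjusted p = 0.210), opposite in direction to the apolipoprotein D-like *LOC409278* above. Among the larger decreases, the following were also called in SF queens. *LOC726040*, whose fly orthologue *pudgy* is an acyl-CoA synthetase, fell by 1.88, *LOC408564*, a long-chain fatty acid transport protein, by 1.60, *LOC726913*, a fatty acid desaturase, by 1.18 and *LOC409999*, a lipase 3-like protein, by 1.12. *LOC102655009*, an elongase of very long chain fatty acids, fell by as much as the last of these, 1.12, and *LOC726981*, a takeout-like carrier, by 0.90. *A4*, an apolipophorin-III-like protein that helps to carry lipid in the haemolymph, rose by 0.69, and *LOC412361*, a PCTP-like lipid transfer protein, by 0.64. These last 4 genes were not called in SF queens.

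Among 7 DEGs of sugar and glycogen metabolism 5 were also called in SF queens. *LOC413575*, a trehalose transporter, fell by 1.44, and *LOC410953*, the Mlx interactor that in other animals senses sugar, by 0.59. *LOC724295*, a subunit that directs protein phosphatase 1 to glycogen, rose by 0.71, and *LOC552328*, glycogen synthase, by 0.40 (adjusted p = 0.0164, beside 0.136 in SF queens). *LOC410795*, the trehalase that splits the blood sugar of insects, fell by 0.53 (adjusted p = 0.0121, beside 0.0575 in SF queens). Of the 7 sugar and energy genes with a RefSeq symbol that were tested, 0 were called, and their median log2 fold change was -0.05.

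Of 9 DEGs gathered for the nucleolus and RNA polymerases I and III, 8 rose, 1 fell, and 8 were not called in SF queens. With lane as a covariate 0 of these 9 were called, with adjusted p-values from 0.0712 to 0.157 in edgeR's test. *LOC552145*, the homologue of MAF1, which represses RNA polymerase III when nutrients are short in yeast, fly and mammals, was at 129, 111, 128, 83.3 and 103 CPM in HS queens and at 77.5, 79.2, 77.3, 79.5 and 58.6 CPM in SE queens. The SE queens were all lower, H74 being the closest HS queen (log2 fold change -0.58 ± 0.12, adjusted p = 0.0186, beside -0.31 in SF queens). Those that rose were *LOC726812*, the initiation factor RRN3 of RNA polymerase I (0.59), *LOC725216*, described as an RNA polymerase I subunit (0.45), *LOC413935*, the core snoRNP protein NOP58 (0.71), *LOC411240*, nucleolar protein 10 (0.46), *LOC413758*, a U3 snoRNA-associated protein (0.61), *LOC551406*, a growth-regulating nucleolar protein (0.80), *LOC724372*, the orthologue of the fly *viriato* (0.59), and *LOC726819*, a DEAD box protein (0.63). The groups of HS and SE queens overlapped in 6 of these 8 genes. The 7 ribosomal protein genes of the list had a median log2 fold change of -0.01, and 0 were called.

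Of 13 DEGs gathered for DNA replication and mitosis, 11 rose and 2 fell, and 12 were not called in SF queens. With lane as a covariate 0 of these 13 were called, the smallest adjusted p being 0.0758 in edgeR's test. *LOC551711*, a kinesin whose fly orthologue *pavarotti* acts in cytokinesis, was at 3.55, 2.65, 2.82, 5.06 and 2.94 CPM in HS queens and at 3.83, 7.13, 8.26, 6.72 and 9.73 CPM in SE queens. S24 lay within the HS range, and the log2 fold change was 1.09 ± 0.27 (adjusted p = 0.0365), beside 0.38 ± 0.28 in SF queens (adjusted p = 0.546). *LOC412031*, S-phase kinase-associated protein 2, rose by 0.76, *LOC412770*, an E2F2-like cell cycle factor, by 0.75, *LOC550962*, exonuclease 1, by 0.70, *LOC551540*, a clamp loader subunit, by 0.67 and *LOC410073*, the CDC45 helicase factor, by 0.35. *LOC100576647*, a separase-like protease that parts sister chromatids, fell by 0.55, and *LOC552512*, kinesin 3E, by 0.97. The increases were small and near the threshold, with the 11 adjusted p-values of the genes that rose between 0.0339 and 0.0486.

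**Figure D3:**
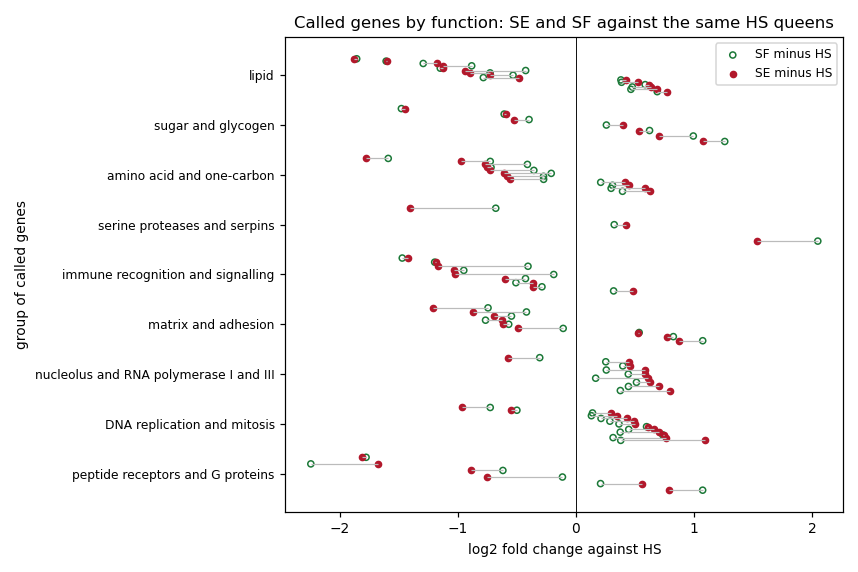
Log2 fold change against HS queens (horizontal axis) of the DEGs named by function (rows), filled red for SE queens and open green for SF queens, with a line joining both values of a gene. The rows of the nucleolus and of DNA replication hold most red points to the right of their green partners, with *LOC551711* at 1.09 in SE and 0.38 in SF queens, and the shared lipid genes such as *LOC408564* lie on top of each other at -1.60 and -1.61. Most genes of those 2 rows were called in SE and not in SF queens. Of all 214 such genes, the SF change was the larger in only 2, so nothing is read from the side on which the points lie.

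Receptors, matrix and signalling genes varied in how far SF queens shared the change. *LOC412570*, whose fly orthologue is the receptor of the diuretic peptide leucokinin, fell by 0.89 in SE queens (adjusted p = 0.0310) and was at -0.62 in SF queens (adjusted p = 0.147). *LOC551950*, a G protein beta subunit, was at 2.67, 3.33, 4.08, 3.37 and 3.65 CPM in HS queens, at 3.12, 3.37, 2.88, 3.77 and 2.73 CPM in SF queens, and at 2.70, 1.81, 1.29, 2.37 and 2.12 CPM in SE queens. All SE queens were below the SF queens, and S24 lay just above the lowest HS queen. The log2 fold change was -0.75 ± 0.20 (adjusted p = 0.0452), beside -0.11 in SF queens, and the SE minus SF difference of -0.63 had an unadjusted 95% interval of -1.06 to -0.21. *LOC408805*, a progestin and adipoQ receptor, rose by 0.56 and was not called in SF queens, whereas *LOC411704*, a G protein alpha i subunit, rose by 0.79 in SE and 1.07 in SF queens. *LOC725008*, a trapped in endoderm-like receptor of the G protein coupled type, was called in SE queens only just (adjusted p = 0.0489), with nearly equal log2 fold changes of -1.81 in SE and -1.78 in SF queens. Of 9 DEGs of matrix and adhesion, 6 were called in SF queens too, among them the integrin beta subunit *LOC724950*, which rose by 0.87 in SE and 1.07 in SF queens. *LOC411345*, a neurotrimin-like adhesion protein, fell by 0.49 in SE queens and stood at -0.11 in SF queens (adjusted p = 0.741).

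The 8 genes with the largest increase among those not called in SF queens were *LOC408643* and *LOC551711* above, the long noncoding RNA *LOC113219158* (log2 fold change 1.28), *LOC100578332* (1.25), *LOC113219298* (1.07), *LOC107965072* (1.04), *LOC100576886* (0.88) and *LOC100578443* (0.86). The SE and HS groups overlapped in *LOC100578332*, *LOC113219298*, *LOC107965072* and *LOC100576886*. The 8 with the largest decrease were *LOC107964661*, *LOC725008* and *LOC726126* above, *LOC107964997* (-2.15), *LOC100579026* (-1.80), *LOC726818*, a beta-hexosaminidase subunit of the lysosome (-1.52), *LOC411387* (-1.51) and *LOC551458* (-1.46). In *LOC107964997* the HS queens ranged from 23.6 to 209 CPM and the SE queens from 11.9 to 49.3 CPM, so that it was a gene of wide spread in both groups. Chosen after their values were seen, *LOC413583*, the orthologue of ephexin, and *LOC726790*, with no described function, are named because all SE queens lay below all SF queens. The former was at -0.39 in SE and -0.03 in SF queens and the latter at -0.48 and -0.11, all on the log2 scale against HS.

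**Figure D4:**
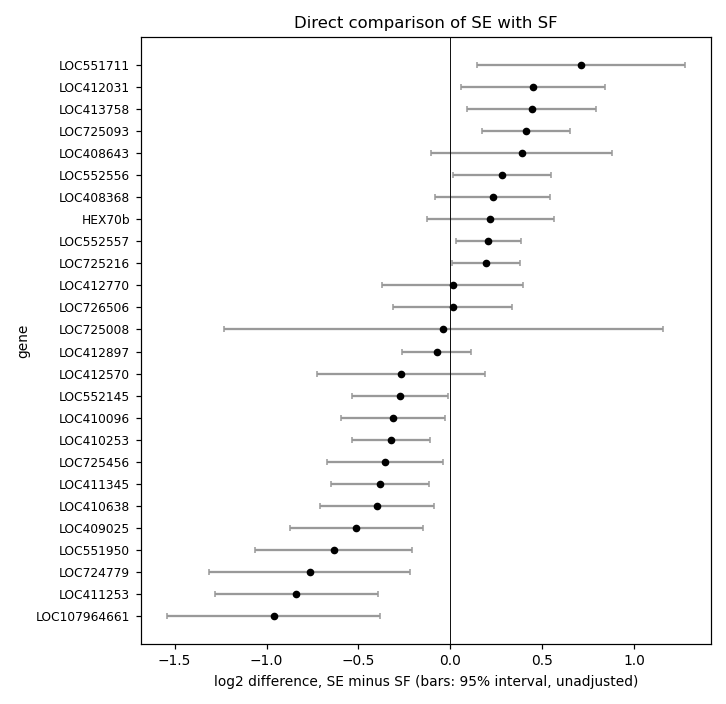
SE minus SF difference in log2 units (horizontal axis) of 26 genes called in SE and not in SF queens, picked for display after their values were seen, with unadjusted 95% intervals, each row a gene. The interval of *LOC411253* runs from -1.28 to -0.39 and that of *LOC725093* from 0.17 to 0.65, while those of *LOC725008* (-1.23 to 1.16) and *HEX70b* (-0.13 to 0.57) include 0, and no gene passed the adjusted threshold.

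Yolk, hormone and carrier genes were followed in lists of genes with a RefSeq symbol, whose counts stand beside 3.69% of all genes called and 20.6% at an unadjusted p under 0.05. *HEX70b*, a hexamerin that stores amino acids in the haemolymph, rose from 81.0 ± 6.08 to 131 ± 41.6 CPM (SD, n = 5 each; log2 fold change 0.69 ± 0.17, adjusted p = 0.0331, beside 0.47 in SF queens), the only DEG among 4 yolk and storage genes tested. The log2 fold change of *Vg* was 0.36 ± 0.37 (adjusted p = 0.635). Of 18 hormone genes tested, *Crzr* alone was called, with a list median of -0.20 and 9 genes at an unadjusted p under 0.05, and of 10 odorant binding protein genes *Obp14* alone, with a median of -0.13. Of 5 chemosensory protein genes, *CSP4* fell by 1.38 ± 0.29 (adjusted p = 0.0184) at low levels, from 3.09 ± 0.869 to 1.14 ± 0.267 CPM, and 4 of the 5 had an unadjusted p under 0.05. None of the 15 detoxification, 8 nuclear respiratory chain, 7 chaperone and 4 royal jelly protein genes tested was called. The 12 respiratory chain genes of the mitochondrial DNA had a median log2 fold change of 0.44 (0.15 in SF queens) and 0 were called. Among the neuron markers 1 of 15 tested, *brp*, a protein of synaptic active zones, fell by 0.80 (adjusted p = 0.0435), and among the 4 muscle, 10 cuticle, 2 oenocyte and 2 germ cell genes tested 0 were called.

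Uninjected virgin queens gave a further level of reference, with all 20 fat bodies scaled together. *LOC411253* stood at 171 to 267 CPM in virgin queens, 165 to 247 in HS and 64.04 to 133 in SE queens, and *LOC724779* at 2145 to 3366, 1357 to 3447 and 872 to 1110.2 CPM. In both, the virgin queens overlapped the HS queens and lay above every SE queen. *LOC725093* was at 10.1 to 15.3 CPM in virgin, 14.2 to 16.7 in HS and 23.6 to 31.9 in SE queens, and *LOC552556* at 112 to 210.5, 161 to 192 and 235 to 293 CPM. The kinesin *LOC551711*, however, was at 3.48 to 7.88 CPM in virgin queens, which overlapped the SE queens (3.81 to 9.68 CPM) as well as the HS queens (2.63 to 5.03 CPM). In other named genes the HS queens already lay apart from the virgin queens. *LOC726040* was at 1605 to 2043 CPM in virgin, 219 to 890 in HS and 133 to 230 in SE queens. *LOC412630* was at 50.8 to 77.6, 16.4 to 24.6 and 7.94 to 11.3 CPM, and *HEX70b* at 34.8 to 44.2, 71.7 to 87.3 and 95.2 to 198 CPM. The virgin queens differ from the others in the wound, in the unaligned share and in the viral reads that the study reported, and these cannot be told apart.

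The levels of the SE queens were not alike in every gene. Of 8 genes with a fitted log2 fold change above 2 that were not called, 7 were high in S27, to a lesser degree in S24, and low in S29, S38 and S83. They were chosen after their values were seen, and are *LOC102655631*, *LOC410683*, *LOC410705*, *LOC726965*, *LOC409650*, *LOC100576444* and *LOC410583*. *LOC102655631*, on linkage group 12, was at 9.01, 75.9, 0.387, 0.474 and 0.177 CPM in S24, S27, S29, S38 and S83. In the HS queens H51, H53, H73, H74 and H75 it was at 2.89, 0.378, 0.0742, 0.169 and 0.236 CPM, and in SF queens it ranged from 11.6 to 74.6 CPM. Thus all SF queens and 2 SE queens were above every HS queen, while 3 SE queens were at the level of HS queens (log2 fold change 4.68 ± 1.42, adjusted p = 0.0720). *LOC726965* was at 18.7, 225, 2.71, 6.80 and 2.83 CPM in the same SE queens and at 2.36 to 14.2 CPM in HS queens. Virgin queens ranged from 0.157 to 18.0 CPM in *LOC102655631*, here without TMM scaling. The SF queens, S24 and S27 were sequenced on lanes 3, 7 and 8, the other SE queens on lanes 4, 5 and 6, and the HS queens of lanes 8 and 3 (H51 and H73) were the highest and the lowest of the HS queens in *LOC102655631*. The part of the lane in this pattern was not tested.

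The number of DEGs depended strongly on single queens. Of the HS queens, H74 lay closest to the SE queens, and without it 612 genes were called, 292 of the 303 among them. H74 also had the highest unaligned share of the HS queens, 68.4%. Without S83 the count was 81, and without H73 it was 76. In all 15 fits that left out a library 65 DEGs were called every time, 22 of them not called in SF queens. Among the genes described here, *LOC725093*, *LOC408643*, *LOC410253*, *LOC409025*, *LOC107964661* and *LOC725456* belong to these, while *LOC411253* was called in 13, *LOC724779* in 12, *LOC552556* in 11 and *LOC551711* in 8 of the 15 fits.

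**Figure D5:**
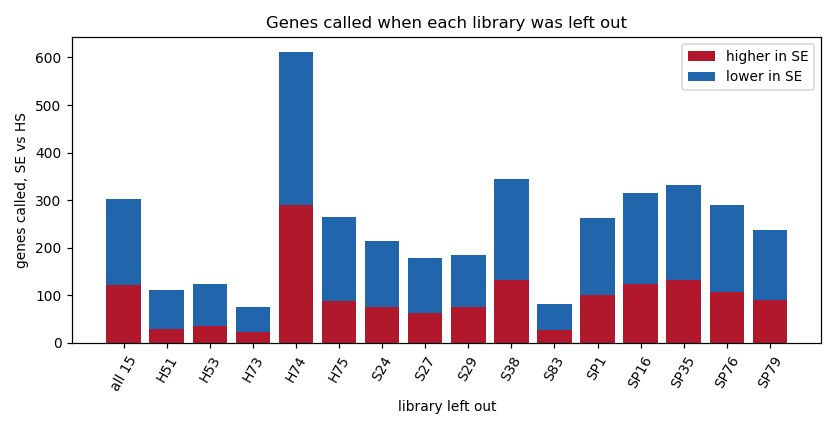
Number of genes called for SE against HS queens (vertical axis, from 0) with all 15 injected libraries and with each library left out (horizontal axis), split into genes higher (red) and lower (blue) in SE queens. The count was 303 with all libraries, 612 without H74, 81 without S83 and 76 without H73.

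SE and HS queens were sequenced together on 4 lanes, with 1 queen of each group per lane. In these 4 pairs, 259 of the 303 DEGs and 191 of the 214 not called in SF queens differed in the same direction in every pair, as against 21.8% of all genes tested. The pairs hold libraries of the comparison itself and are a description. For *LOC411253* the within-lane difference was between -1.52 and -0.54 log2 units, for *LOC725093* between 0.49 and 0.99, and for *LOC552145* between -0.92 and -0.07. With lane as a covariate 64 genes were called, 63 of them among the 303 and 31 among the 214. Of the 112 genes chosen to be named, 75 had no call with lane as a covariate and 37 had one. *LOC725093* (adjusted p = 0.0153), *LOC409025* (0.0159), *LOC410253* (0.0249), *LOC411253* (0.0303), *LOC726126* (0.0403) and *LOC724779* (0.0438) were among those called, and *LOC552556* (0.126), *LOC551711* (0.133), *LOC552145* (0.0712), *HEX70b* (0.155), *CSP4* (0.104), *brp* (0.158), *A4* (0.0858) and *LOC551950* (0.160) were not.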

How the data were processed

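RNA of single queens was sequenced from brain and fat body. The authors trimmed reads with cutadapt, aligned them to the bee genome (Amel_HAv3.1) with HISAT2 and counted reads over whole genes with HTSeq, and the deposited counts are whole reads per gene, not normalized. The strand setting is not given in the sources used here, so reads of overlapping and antisense genes, and of near-identical copies, cannot be told apart. Rows of unassigned reads were left out of library sizes. In the 15 injected fat bodies, 49.3% to 71.6% of all reads were not aligned.

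The counts of the 15 injected fat bodies (4832119 to 13212533 reads on genes) were fitted together in R 4.3.3 with edgeR 4.0.16, with filterByExpr at a minimum count of 20, TMM scaling, the quasi-likelihood test and Benjamini-Hochberg adjustment over 8201 genes, two-sided. Values are TMM-normalized CPM, and each precision is the SD between queens or the standard error of the fold change. A log2 CPM within lanes used a pseudocount of 0.5. Each queen is a separate animal, and even the 2 most alike replicates differed far beyond counting noise (chi-squared 22.0 times its degrees of freedom), so no library was counted as a copy. All 12332 gene IDs matched RefSeq, whose Amel_HAv3.1 positions are given. Gene descriptions and fly orthologues were taken as names from the study's supplementary tables, whose fold changes and p-values were not used.

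Named genes are the 10 that rose and the 10 that fell with the smallest p, the 8 and 8 with the largest change among those not called in SF queens, up to 4 called members of each list, the markers, and the groups gathered by function. The members, lists and tests were chosen with earlier results of these data known. Lists were built from RefSeq symbols and are short. Alternatives were DESeq2 1.42.0, limma 3.58.1 (voom and trend), other scalings and filters, other sets of libraries, lane or unaligned share as covariates, and each library left out. The steps were tested on simulated data, with counts drawn independently for each library and no effect of lane, unaligned share or single queens. That test therefore says nothing on how far these affect the calls.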

Additional observations from a re-analysis of the deposited data

Results flagged for a closer look

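Among the genes named by p or by size of change, 68 groups of HS or of SE queens were searched for a queen far from the other 4, and 2 held one, while chance alone gives about 1 in 20 groups. H74 stood apart among the HS queens in *LOC410869*, at 19.4 CPM beside 16.3 to 16.8 CPM in the others, and in *LOC408643*, at 155.9 CPM beside 92.0 to 102 CPM. In both genes H74 lay toward the SE queens, and without it the SE against HS difference had an adjusted p of 0.00267 and 0.00317 in edgeR's test, from which nothing is read, since H74 had been picked as the HS queen nearest to the SE queens.

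Outside the genes tested, *LOC100578468* had 52 reads over the 5 SE queens and 2 in the other injected queens together, *LOC726487* had 44 and 2, and *LOC725766* had 23 and 1. Nearly all of these reads came from S38 (35, 21 and 16) and S83 (16, 23 and 5). Uninjected virgin fat bodies held up to 93, 114 and 34 reads of these genes in a single library, so that reads of these genes were also found where no semen had been given. No gene was found in every SE queen and absent from the HS and SF queens.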

How the results depend on the processing

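Of the SE against HS result, 303 genes (122 higher, 181 lower), DESeq2 gave 666 (284 and 382), lane as a covariate 64 (14 and 50) and the unaligned share as a covariate 161 (54 and 107). Library sizes alone gave 63 higher genes, and virgin fat bodies added gave 199. For SF against HS, 136 genes, DESeq2 gave 345, virgin fat bodies added 223 and lane as a covariate 5. The 214 genes not called in SF queens numbered 448 with DESeq2, 140 with library sizes alone, 59 with lane and 101 with the unaligned share as covariates. Leaving out each library gave 76 to 612 genes for SE against HS (23 to 289 higher, 53 to 323 lower), 41 to 377 for SF against HS, and 34 to 350 not called in SF queens. SE against SF gave 0 genes in every alternative and every fit that left out a library. Besides the queens named in the report, SE against HS counts fell by more than 1.5 times without H51 (110), H53 (124), S27 (179) and S29 (185), and the genes higher in SE queens also without S24 (76). SF against HS counts moved by more than 1.5 times without H51 (43), H53 (41), H73 (44), H74 (377), H75 (63), SP1 (82), SP16 (48) and SP79 (61). The remaining alternatives, left-out libraries aside, stayed within 1.5 times, no named gene changed direction, and 37 of 112 were called in all fits that left out a library. No paired analysis was possible because the queen numbers, which alone could pair queens by label, are not shared between groups. The lane, which 4 SE and 4 HS queens share, was fitted as a block instead, with the counts given above for lane as a covariate. Genes with few reads and differences below the intervals given are beyond the depth of these libraries.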
